A study of Mus musculus with 9 samples.

Results

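Mal, Mall, Mal2 and Sytl2 were followed across wild-type (WT) and AHR knockout (AHR KO) mouse colon organoids given vehicle or FICZ, a high-affinity ligand of the aryl hydrocarbon receptor (AHR). They are 4 of the 48795 gene IDs in the deposited table. They were chosen on measured values, because Mal, Mall and Sytl2 were higher with FICZ in WT organoids and not in AHR KO organoids, and Mal2, the related proteolipid, was taken with them. The values in the FICZ comparisons are therefore a description, and none of these 4 genes was tested in them.

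The organoids were grown from crypts of the whole colon of WT mice and of Vil-cre Ahr fl/fl mice, in which Cre driven by the villin promoter deletes Ahr in epithelial cells. All cultures were kept in WENR medium, which contains Wnt3a, EGF, Noggin and R-spondin and favours stem cells, and were treated for 4 hours with DMSO or with 5 nM FICZ. The 9 libraries fell into 4 groups, with replicates 2 and 3 of WT organoids under DMSO, replicates 1, 2 and 3 under FICZ, and replicates 1 and 3 of AHR KO organoids under either treatment. The replicate number is that of the organoid line in the labels, and the study's methods describe the lines as biological replicates.

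MAL, MALL and MAL2 are small proteins with several membrane-spanning segments of the MARVEL domain kind. MAL sits in sphingolipid- and cholesterol-rich membrane and is part of the machinery that carries newly made proteins directly to the apical surface of polarised epithelial cells, MAL2 acts in the indirect route by which proteins reach that surface across the cell, and MALL is a MAL-like proteolipid found in raft-like membranes. SYTL2, also called Slp2, binds the small GTPase RAB27 through its N-terminal domain and membrane phospholipids through its C2 domains, and it tethers vesicles at the apical membrane. Colonocytes and goblet cells use such routes to place transporters, digestive enzymes and mucins on the side that faces the gut lumen.

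The deposited values are normalised counts, which sum to 23.2 M or more in every library, and the estimated depth behind them was 21.7 to 30.5 M reads. Ahr was listed at 783 to 858 normalised counts in the 5 WT libraries and at 1346 to 1443 in the 4 libraries labelled AHR KO, so the gene-level value went against the label and could not serve as a check of the deletion. Among targets of the receptor, Cyp1a1 averaged 7581 normalised counts in WT FICZ and 119.6 in AHR KO FICZ, and was at most 5.84 in any DMSO library. Under DMSO the labels were separated by Cyp1b1, at 1632 and 1078 normalised counts in WT and at 34.5 and 25.4 in AHR KO. AHR KO stands below for the libraries labelled so. Epithelial markers were detected for 8 of 8 genes with a summed level of 303465 to 330711, whereas fibroblast, smooth muscle and endothelial markers summed to at most 5.50 in any library. Immune markers summed to at most 19.6, enteroendocrine markers to 21.1 to 97.3 and tuft cell markers to 34.8 to 75.7, and of 6 glial genes Mbp was the only one to average over 10.

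The genes for Mal and Mall are neighbours. In the GRCm38 build, with GENCODE M21 gene models, Mal (ENSMUSG00000027375) lies on the minus strand at chr2:127633226-127656695 and Mall (ENSMUSG00000027377) on the same strand at chr2:127704386-127729932. The gap between them is 47.7 kb, and the 3 annotated genes inside it had no counts in any library. Mal2 (ENSMUSG00000024479) is on the plus strand at chr15:54571192-54602847 and Sytl2 (ENSMUSG00000030616) on the plus strand at chr7:90302252-90410719. All 4 are annotated as protein-coding.

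The coding sequences of the MAL proteolipids are of similar size and have diverged. In the longest protein-coding transcript, Mal has 459 coding bases and encodes 153 residues, Mall 462 bases and 154 residues, and Mal2 525 bases and 175 residues, each from 4 exons. In a global alignment the coding bases were 54.8% identical between Mal and Mall, 54.0% between Mal and Mal2, and 54.1% between Mall and Mal2. The longest run shared by any pair of the 4 whole transcripts was 13 bases, found between Mall and Sytl2. Sytl2 is unlike them, with 2850 coding bases for 950 residues in 19 exons.

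The start regions of Mal and Mall are shown because these neighbouring genes were both higher with FICZ in WT organoids. Each runs from 250 bases before to 50 bases after the RefSeq start of the gene in GRCm38.p6, is written on the gene's strand from 5′ to 3′, and has the only motif match in capitals. The Mal window is chr2:127656646-127656945 and the Mall window chr2:127729848-127730147, both on the minus strand.
Mal: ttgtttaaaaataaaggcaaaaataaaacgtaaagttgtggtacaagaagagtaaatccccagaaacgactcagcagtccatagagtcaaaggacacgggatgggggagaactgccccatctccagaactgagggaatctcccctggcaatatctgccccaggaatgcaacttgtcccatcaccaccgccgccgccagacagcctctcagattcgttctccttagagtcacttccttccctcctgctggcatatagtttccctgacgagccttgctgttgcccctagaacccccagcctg
Mall: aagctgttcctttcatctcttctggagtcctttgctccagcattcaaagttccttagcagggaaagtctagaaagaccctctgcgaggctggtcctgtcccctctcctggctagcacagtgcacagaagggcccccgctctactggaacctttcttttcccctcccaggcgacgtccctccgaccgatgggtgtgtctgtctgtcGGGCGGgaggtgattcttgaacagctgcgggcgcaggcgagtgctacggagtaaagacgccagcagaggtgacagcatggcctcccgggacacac
The Mall window held 1 match to GGGCGG, the letters of an SP1 box, which began 45 bases before the start, and the Mal window held none. GGGCGG on either strand was present in 35.7% of the 32851 promoters of the same length. Neither window held GCGTG, the core letters of an AHR site, on either strand, against 32.4% of all promoters. TGANTCA for AP-1, TTTATNG for CDX and TATAAA for a TATA box were also searched on both strands, without a match in either window, and occurred in 7.81%, 10.9% and 13.6% of all promoters. The GC content was 51.0% in the Mal window and 58.7% in the Mall window, with 8 and 14 CpG dinucleotides, where all promoters had medians of 52.7% and 7.

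The first comparison set FICZ against DMSO in organoids with intact AHR. Mal, the founding member of the proteolipid family, was listed at 346.3 normalised counts in replicate 2 and 220.3 in replicate 3 of WT DMSO. In WT FICZ it reached 1156, 1032 and 1037 in replicates 1, 2 and 3. The groups did not overlap, and the lowest FICZ library lay well above the higher DMSO library. The mean was 283.3 ± 89.1 (SD, n = 2) under DMSO and 1075 ± 70.0 (SD, n = 3) under FICZ, a ratio of 3.79. On the log2(value + 1) scale the change was 1.95 with a standard error of 0.18, the 24th highest of the 12741 genes that averaged at least 10 normalised counts.

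Mall was the more abundant of the neighbours throughout. Its WT DMSO values were 3215 and 2808 normalised counts in replicates 2 and 3, and its WT FICZ values were 9142, 8880 and 9911 in replicates 1, 2 and 3. Again no library of one group reached the range of the other. The mean was 3011 ± 287 (SD, n = 2) under DMSO and 9311 ± 536 (SD, n = 3) under FICZ, a ratio of 3.09, and the log2 change was 1.63 with a standard error of 0.10.

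Sytl2, the apical vesicle tether, had 472.2 normalised counts in replicate 2 and 384.5 in replicate 3 of WT DMSO. With FICZ it had 906.1, 925.1 and 1011 in replicates 1, 2 and 3. The groups were apart here too, with a mean of 428.4 ± 62.1 (SD, n = 2) under DMSO and 947.3 ± 55.8 (SD, n = 3) under FICZ, a ratio of 2.21. The log2 change was 1.15 with a standard error of 0.15.

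Mal2, the proteolipid of the indirect route, behaved otherwise. It was listed at 9481 normalised counts in replicate 2 and 9243 in replicate 3 of WT DMSO, and at 8313, 8790 and 8591 in WT FICZ replicates 1, 2 and 3. Every FICZ library was thus slightly below both DMSO libraries, with means of 9362 ± 168 (SD, n = 2) and 8565 ± 240 (SD, n = 3). The log2 change was -0.13 with a standard error of 0.06, and it became 0.04 once the trend of the libraries with GC content and transcript length was removed. The sign of this small difference therefore depended on that removal.

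Mal, Mall and Sytl2 were thus the 3 of 4 whose WT libraries separated upwards with FICZ. The share of all genes whose libraries separated in this way was not counted, and the calls given next use another criterion. Over all genes tested, 15.1% were called higher and 15.7% lower with FICZ in WT organoids by limma at an adjusted p of 0.05, a background from which nothing is read for these genes because they were chosen on this contrast. The choice had no stated cut-off, so no values just inside or outside it can be given. The estimated number of reads behind a value was 80.1 at the lowest, for Sytl2 in an AHR KO FICZ library, and all 4 genes passed the filter on low values in every group.

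**Figure D1:**
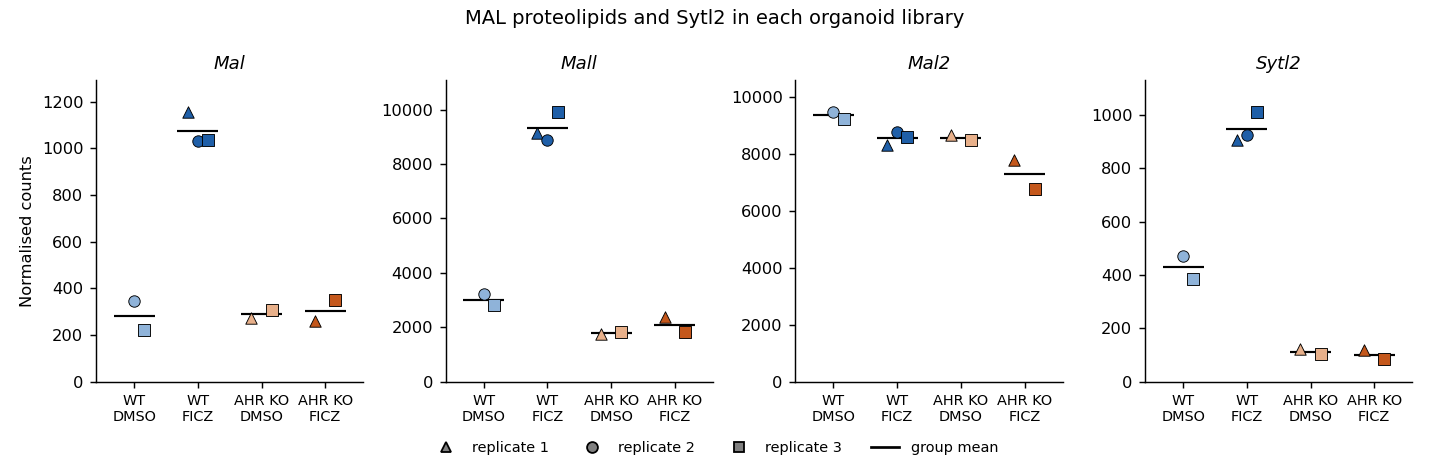
Normalised counts (vertical axis, from 0) of Mal, Mall, Mal2 and Sytl2 in each of the 9 libraries, by group. Symbols mark the replicate number and lines the group mean; the 3 WT FICZ libraries stand apart for Mal, Mall and Sytl2, while Mal2 stays between 6781 and 9481 in all libraries.

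In AHR KO organoids Mal was at a level near that of WT DMSO with either treatment. Its values under DMSO were 270.7 normalised counts in replicate 1 and 305.1 in replicate 3, and under FICZ 259.6 in replicate 1 and 349.5 in replicate 3. The FICZ libraries lay on both sides of the DMSO libraries. The means were 287.9 ± 24.3 and 304.6 ± 63.6 (SD, n = 2 each), and the log2 change was 0.07 with a standard error of 0.20, or -0.15 to 0.28 with 1 library left out.

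Mall was listed at 1758 and 1832 normalised counts in AHR KO DMSO replicates 1 and 3. In AHR KO FICZ it had 2373 and 1824 in replicates 1 and 3. Replicate 1 was higher with FICZ and replicate 3 was not, so the groups overlapped. The means were 1795 ± 52.1 and 2099 ± 388 (SD, n = 2 each), with a log2 change of 0.21 and a standard error of 0.11. Without FICZ replicate 1 the change of Mall was 0.02 and without FICZ replicate 3 it was 0.40.

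Sytl2 was low in AHR KO organoids with either treatment, at 123.3 and 102.3 normalised counts in DMSO replicates 1 and 3 and at 116.9 and 85.4 in FICZ replicates 1 and 3. The ranges overlapped, and the log2 change was -0.17 with a standard error of 0.17. Without AHR KO FICZ replicate 1 this change of Sytl2 was -0.39 and without replicate 3 it was 0.06. Mal2 had 8661 normalised counts in replicate 1 and 8487 in replicate 3 under DMSO, against 7812 and 6781 in the same replicates under FICZ. Both FICZ libraries were below both DMSO libraries, and its log2 change was -0.24 with a standard error of 0.07. This change was -0.16 under quantile normalization, -0.06 once the GC and length trend was removed, -0.34 without AHR KO FICZ replicate 1 and -0.13 without AHR KO FICZ replicate 3. In AHR KO organoids 10.2% of all genes tested were called higher and 9.48% lower with FICZ. Once the GC and length trend was removed, 202 genes were called higher and 424 lower in this comparison, against 1301 and 1208 without it.

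The difference between the FICZ change in WT and that in AHR KO organoids, the interaction, was 1.89 on the log2 scale for Mal with a standard error of 0.27. It was 1.42 (standard error 0.15) for Mall and 1.32 (standard error 0.23) for Sytl2. For Mal2 it was 0.11 with a standard error of 0.09. Over all genes tested, the interaction was called above 0 for 0.377% and below 0 for 0.0706%. These values also restate the choice of the genes and were not tested.

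Within single organoid lines the picture was alike. In WT line 2 the FICZ value was 2.98 times the DMSO value for Mal, 2.76 times for Mall and 1.96 times for Sytl2, and in WT line 3 these ratios were 4.71, 3.53 and 2.63. Line 3 thus had the higher ratio for each of these genes. In AHR KO line 1 the ratios were 0.959 for Mal, 1.35 for Mall and 0.948 for Sytl2, and in AHR KO line 3 they were 1.15, 0.996 and 0.835. The ratio of Mal2 stayed under 1 in each of the lines that had both treatments, at 0.927, 0.930, 0.902 and 0.799.

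The comparison of AHR KO with WT organoids under DMSO asked whether the levels differed before any ligand was added. It is the only one in which these genes were tested, by limma with Benjamini-Hochberg adjustment over the 12741 genes, and it uses the same DMSO libraries as the FICZ comparisons. Of the 4 genes, 2 were called lower and none higher, where 4.83% of all genes tested were called lower and 4.21% higher. Sytl2 fell by 1.91 on the log2 scale (standard error 0.17, adjusted p = 0.000144), from a mean of 428.4 to 112.8 ± 14.9 normalised counts (SD, n = 2), a 3.80-fold lower level. This was the 44th lowest log2 difference of all genes tested. Mall fell by 0.74 (standard error 0.11, adjusted p = 0.00288), from a mean of 3011 to 1795 normalised counts, which is 1.68-fold lower. For each of them the pair of AHR KO libraries lay below the pair of WT libraries. The same held for Mal2, which was not called, and the share of all genes with such a separation was not counted.

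Mal did not pass the test in this comparison. Its log2 difference was 0.06 (95% interval -0.38 to 0.50, adjusted p = 0.897), and the AHR KO DMSO libraries, at 270.7 and 305.1 normalised counts, lay between the WT DMSO libraries. A difference of any size within that interval, in either direction, remains possible at this depth and number of libraries. The interval is not a limit of detection. Mal2 had a log2 difference of -0.13 (95% interval -0.28 to 0.02, adjusted p = 0.288), its AHR KO DMSO libraries being at 8661 and 8487 normalised counts and its WT DMSO libraries at 9481 and 9243. Mal and Mall, although adjacent, thus differed in the outcome of this test, and the difference between them was not itself tested. The calls of Mall and Sytl2 were made in all 21 alternative analyses, including each in which 1 library was left out, with adjusted p between 0.000536 and 0.0338 for Mall and between 7.43e-05 and 0.00322 for Sytl2.

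Markers of mature cell types moved with genotype as well. The summed level of 8 absorptive colonocyte markers, of which Car4 and Aqp8 averaged under 10 normalised counts, was 4232 to 4518 in WT DMSO and 1502 to 1853 in AHR KO DMSO. With FICZ it was 3868 to 5530 in WT and 1124 to 1651 in AHR KO organoids, so that it followed genotype and overlapped between treatments within WT. The 7 goblet cell markers, of which Spdef and Zg16 averaged under 10, summed to 3944 to 5895 in WT DMSO and 1733 to 1803 in AHR KO DMSO. The part of these markers in the lower Mall and Sytl2 levels was not tested, and in such bulk samples fewer cells of a type and less RNA per cell cannot be told apart. The 4 stem cell markers summed to 4268 to 4733 in WT DMSO, 4030 to 4313 in WT FICZ, 4694 to 4944 in AHR KO DMSO and 5005 to 5173 in AHR KO FICZ. Most of that sum came from Axin2, and Lgr5 by itself was at 1271 and 1200 normalised counts in WT DMSO, 490 to 547 in WT FICZ and 1253 to 1579 in the AHR KO libraries, so that it was lower in the libraries in which Mal, Mall and Sytl2 were higher. The other stem cell markers did not share this, since Axin2 was at 3141 and 2854 in WT DMSO and 3237 to 3489 in WT FICZ, and the ranges of Ascl2 and Smoc2 overlapped between those groups. Lgr5 was singled out after its values were seen, and its part in the values of Mal, Mall and Sytl2 was not tested.

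Under FICZ the genotypes differed for Mal, Mall and Sytl2 by more than under DMSO. Sytl2 averaged 9.36 times more in WT FICZ than in AHR KO FICZ, Mall 4.44 times, Mal 3.53 times and Mal2 1.17 times. On the log2 scale AHR KO minus WT was -3.23 (standard error 0.15) for Sytl2, -2.16 (standard error 0.10) for Mall, -1.83 (standard error 0.18) for Mal and -0.23 (standard error 0.06) for Mal2. The value of Mal2 was -0.34 without AHR KO FICZ replicate 1 and -0.13 without AHR KO FICZ replicate 3. For Sytl2 and Mall a difference of the same sign was present under DMSO, while the difference of Mal under DMSO was 0.06. These values contain the interaction and were not tested.

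**Figure D2:**
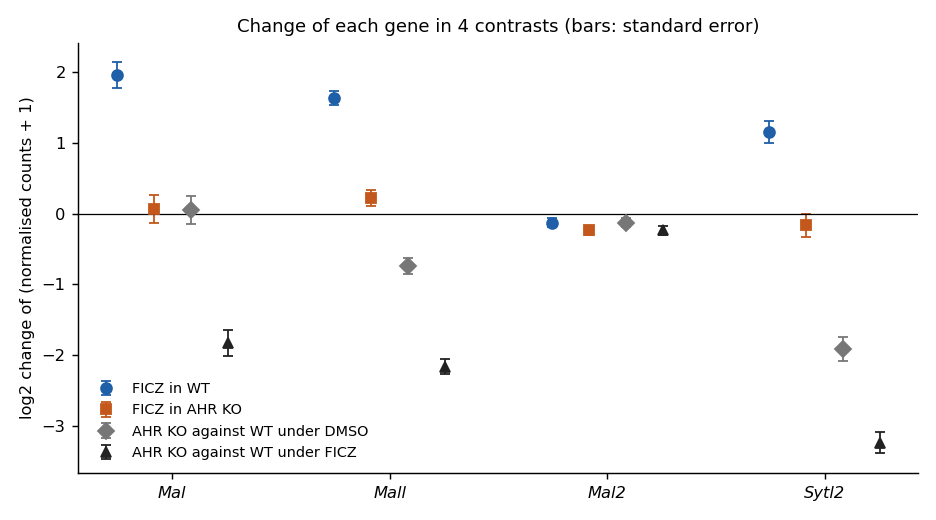
Log2 change of normalised counts + 1 (vertical axis) of Mal, Mall, Mal2 and Sytl2 with FICZ in WT, with FICZ in AHR KO, and for AHR KO against WT under DMSO and under FICZ, with bars for the standard error. Mal is at 1.95 with FICZ in WT and close to 0 with FICZ in AHR KO and under DMSO, Sytl2 is at -1.91 already under DMSO, and Mal2 is within 0.24 of 0 in all 4.

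To compare the genes with each other, values were divided by the length of the longest protein-coding transcript, 2778 bases for Mal, 2006 for Mall, 2950 for Mal2 and 3838 for Sytl2. In WT DMSO the mean levels were 3173 normalised counts per kb for Mal2, 1501 for Mall, 112 for Sytl2 and 102 for Mal. Mal2 and Mall were apart in every library of that group, whereas the ranges of Sytl2 and Mal overlapped. In WT FICZ the order changed to 4642 per kb for Mall, 2903 for Mal2, 387 for Mal and 247 for Sytl2, with no overlap between neighbours in that order. In AHR KO DMSO it was 2906 for Mal2, 895 for Mall, 104 for Mal and 29.4 for Sytl2, and AHR KO FICZ kept that order at 2473, 1046, 110 and 26.4.

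The ratio of Mal2 to Mall therefore differed between conditions. For WT FICZ this restates the FICZ response on which Mall was chosen. The level of Mal2 per kb was 2.12 times that of Mall in WT DMSO and 0.627 times in WT FICZ. In AHR KO organoids the ratio was 3.25 under DMSO and 2.38 under FICZ, so Mall exceeded Mal2 only in the WT FICZ group. The level of Mall per kb was 15.3 times that of Mal in WT DMSO (12.85 to 17.65 over the libraries) and 12.0 times in WT FICZ (10.95 to 13.23). It was 8.65 times in AHR KO DMSO (8.31 to 8.99) and 9.94 times in AHR KO FICZ (7.23 to 12.66). The ranges of the WT groups overlapped, and that of AHR KO FICZ overlapped those of WT FICZ and AHR KO DMSO. Mal2 ranked in the 99.1st percentile of all gene IDs by mean normalised count, Mall in the 97.9th, Mal in the 86.1st and Sytl2 in the 85.0th.

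**Figure D3:**
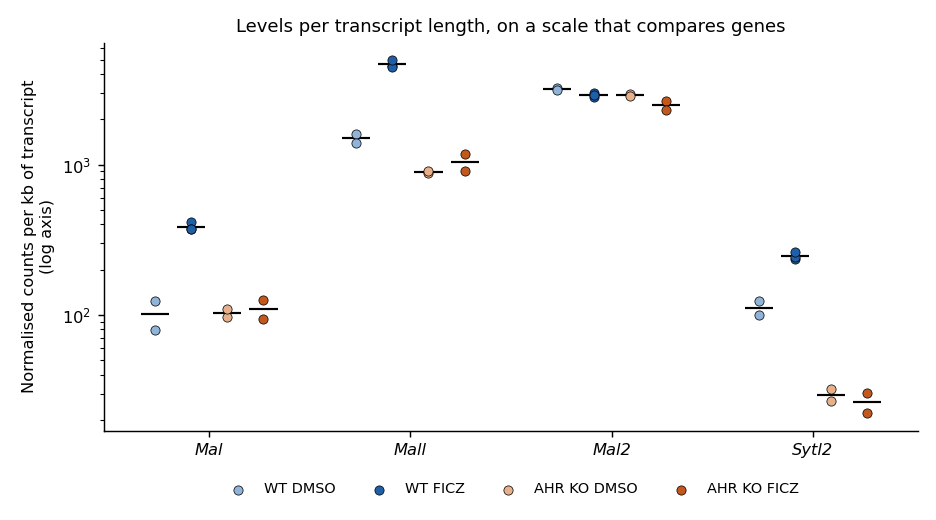
Normalised counts per kb of transcript on a log axis for the 4 genes, with points for libraries, colours for groups and lines for group means. Mall lies above Mal2 in WT FICZ and below it in the other groups, and Sytl2 is lowest in AHR KO organoids, at 29.4 and 26.4 per kb.

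The genes around the Mal and Mall pair had smaller changes with FICZ in WT organoids. Mal and Mall were chosen for this response, so the contrast with their neighbours follows from the choice. Within 250 kb of Mal, 7 other genes were tested. With FICZ in WT organoids Mtln, which encodes a mitochondrial micropeptide, was called higher (log2 change 0.47, adjusted p = 0.0234) and Mrps5, a mitochondrial ribosomal protein gene, lower (log2 change -0.43, adjusted p = 0.0025), and all 7 lay between -0.43 and 0.47. Mrps5 was also called lower in AHR KO organoids, with a log2 change of -0.34 (adjusted p = 0.0207). None of the 7 was called in the interaction by limma, none at an unadjusted p under 0.05, and their log2 differences were -0.10 to 0.22. None was called between genotypes under DMSO, where 3 had an unadjusted p under 0.05.

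Of the 6 genes tested within 250 kb of Sytl2, Picalm, which encodes a clathrin assembly protein, was called lower with FICZ in WT (log2 change -0.35, adjusted p = 0.00165) and in AHR KO organoids (log2 change -0.32, adjusted p = 0.00792). The 6 lay between -0.35 and 1.09 with FICZ in WT, the highest being Gm45221 (adjusted p = 0.112, not called), whose value was close to the 1.15 of Sytl2. None of the 6 was called in the interaction by limma, none at an unadjusted p under 0.05. Between genotypes under DMSO, where Sytl2 was lower, none was called, 1 had an unadjusted p under 0.05, and their log2 differences were all above 0, from 0.02 to 0.48. Enpp2 was the one gene tested near Mal2 and was called lower with FICZ in WT organoids (log2 change -0.39, adjusted p = 0.0318).

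**Figure D4:**
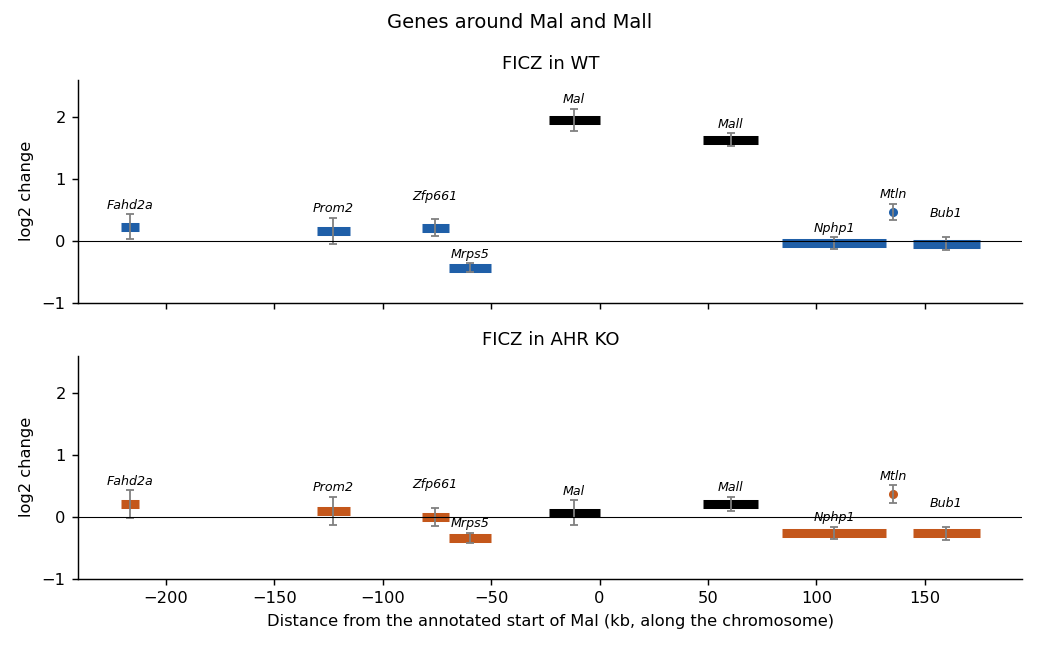
Log2 change with FICZ (vertical axes) of Mal, Mall and the genes tested within 250 kb, in WT (top) and AHR KO organoids (bottom), against the distance from the annotated start of Mal in kb. Bars span the genes, dots mark their middle and error bars give the standard error. Mal and Mall (black) stand at 1.95 and 1.63 in WT, for which they were chosen, and their neighbours lie between -0.43 and 0.47.

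The genes most like each of the 4 were found by Pearson's r of log2 values over the 9 libraries among 10975 genes that averaged at least 50 normalised counts, as a description. Closest to Mal was Plcg2 (r = 0.982), a phospholipase C gene, which averaged 541.4 normalised counts in WT DMSO, 1084 in WT FICZ, 589.2 in AHR KO DMSO and 583.8 in AHR KO FICZ. Unc119 and Map3k20 followed, with r of 0.978 and 0.977. Closest to Mall were Erbb3 (r = 0.995), Man1a (0.994) and Clk3 (0.993). Man1a, which encodes a mannosidase of N-glycan trimming, averaged 1223, 1895, 1026 and 1047 normalised counts in the same order of groups. Closest to Sytl2 were Jakmip1 (r = 0.995), Ugt1a7c (0.993) and Ppp1r14d (0.992). Ugt1a7c, a glucuronosyltransferase gene, averaged 4430, 7961, 886.4 and 979.6, high in WT FICZ and low in both AHR KO groups like Sytl2. Closest to Mal2 were Atp5c1 (r = 0.984), Ppp6c (0.981) and Slc35a1 (0.977), and Atp5c1, a subunit of ATP synthase, averaged 6526, 6106, 6105 and 5671. All of these r values rest on the same libraries and on 4 group levels.

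Other genes were counted from 9 lists, of which 131 genes were tested. The lists cover the apical route, the MARVEL family and, with 13 tested genes, basolateral sorting. With FICZ in WT organoids 17 of the 131 were called higher and 28 lower, 13.0% and 21.4% beside the 15.1% and 15.7% of all genes, and their median log2 change was -0.03 where that of all genes was -0.01. With the GC and length trend removed 11 were called higher and 16 lower, beside 994 and 1260 of all genes tested. Without either of the WT DMSO replicates the counts fell in both directions, as did those of all genes tested. Lower calls no longer outnumbered higher ones without WT DMSO replicate 2, in the lists or over all genes. Among 16 MARVEL family genes 3 were called higher and 3 lower, among them Syngr2 (0.43, adjusted p = 0.00058) and Cmtm4 (0.26, adjusted p = 0.00325). Of 11 synaptotagmin-like and RAB27 effector genes, the kin and partners of Sytl2, none was called in WT or in AHR KO organoids by limma, and 4 and 2 had an unadjusted p under 0.05. Of 22 recycling Rab and motor genes 2 were called higher, Rab25 (0.33, adjusted p = 0.00273) among them, and 7 lower, and of 17 SNARE and exocyst genes 2 were called higher and 6 lower. With the GC and length trend removed, Syngr2 was at 0.24 and Rab25 at 0.20. Of 16 polarity and brush border genes 2 were called higher and 5 lower, among them Ezr, which links the membrane to actin (-0.74, adjusted p = 0.000417), Pard3 (-0.48, adjusted p = 0.000507) and Eps8 (-0.43, adjusted p = 0.000937). The means of all the genes named here moved in the same direction with FICZ in AHR KO organoids. From AHR KO DMSO to AHR KO FICZ, Syngr2 went from 3971 to 5432 normalised counts, Cmtm4 from 3737 to 3998 and Rab25 from 2532 to 3184. Ezr went from 29120 to 21080, Pard3 from 1596 to 1281 and Eps8 from 8131 to 6833.

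Of 15 raft and sphingolipid genes 4 were called higher, with the galectin gene Lgals3 (0.47, adjusted p = 0.00539) among them, and 2 lower. Of 14 apical cargo genes 2 were called higher and 2 lower, with the chloride channel gene Cftr at -0.75 (adjusted p = 0.000271). In AHR KO organoids Lgals3 averaged 8286 normalised counts under DMSO and 9600 under FICZ, and Cftr 2462 and 1798, the directions seen in WT. Of 7 genes for partners of MAL2 none was called higher and 2 lower, and of 13 basolateral sorting genes 2 were called higher and 1 lower. With FICZ in AHR KO organoids 10 of the 131 were called higher and 14 lower, 7.63% and 10.7% beside the 10.2% and 9.48% of all genes. With the GC and length trend removed they were 1 and 5, beside 202 and 424 of all genes tested. Both directions together gave 24 calls in the reported analysis, beside 2509 over all genes tested. Both of these counts fell without any 1 of the AHR KO libraries. They fell less without either of the WT DMSO replicates or without WT FICZ replicate 3. In the interaction 1 of the 131 was called, above 0, which is 0.763% beside the 0.377% of all genes. It was Exoc3, an exocyst subunit gene (0.94, adjusted p = 0.000257). Exoc3 averaged 1741 ± 52.3 normalised counts in WT DMSO (SD, n = 2), 3291 ± 64.8 in WT FICZ (SD, n = 3), 1562 ± 0.327 in AHR KO DMSO and 1542 ± 38.0 in AHR KO FICZ (SD, n = 2 each). Exoc3 lies 2.38 kb beyond the 3′ end of Ahrr, a target of AHR on the same strand. Ahrr was at 1.49 and 1.51 normalised counts in WT DMSO and 426.8 to 567.5 in WT FICZ, and its part in the Exoc3 value was not tested.

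**Figure D5:**
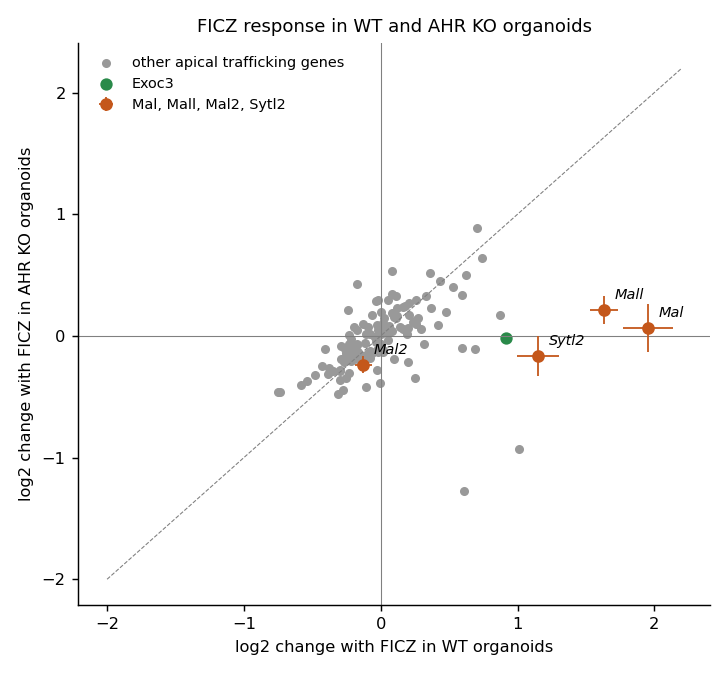
Log2 change with FICZ in WT (horizontal axis) and in AHR KO organoids (vertical axis) for 131 list genes (grey), Exoc3 (green) and Mal, Mall, Mal2 and Sytl2 (orange, bars for the standard error), with a dashed line of equal change. The grey points, labelled as apical trafficking genes, include 13 basolateral sorting genes. Mal, Mall and Sytl2 lie at 1.95, 1.63 and 1.15 in WT, for which they were chosen, the list genes lie between -0.75 and 1.01, and Mal2 lies among the grey points.

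Between AHR KO and WT organoids under DMSO, the comparison in which Mall and Sytl2 were called lower, 10 of the 131 list genes were called higher and 23 lower, 7.63% and 17.6% beside the 4.21% and 4.83% of all genes. Without WT DMSO replicate 2 these calls were 5 higher and 5 lower beside 329 and 228 over all genes tested, and without WT DMSO replicate 3 they were 5 and 9 beside 266 and 319. They were 3 and 5 without either of the AHR KO DMSO replicates, beside 210 and 242 without replicate 1 and 201 and 188 without replicate 3. With no filter on low values they were 7 and 13 beside 411 and 442. Under quantile normalization 11 were called higher and 15 lower, beside 557 and 507. Of 14 apical cargo genes 2 were called higher and 7 lower with a median log2 difference of -0.69, among them Lypd8, which encodes a protein that keeps bacteria from the colon surface (-1.29, adjusted p = 0.00135), and the proton pump gene Atp12a (-1.25, adjusted p = 0.000962). Slc26a3, Ceacam20 and Aqp8 stand in both the cargo list and the absorptive colonocyte markers. Of 22 recycling Rab and motor genes 1 was called higher, Rab11fip5 (1.77, adjusted p = 7.37e-05), and 6 lower, with the brush border myosin gene Myo1a at -1.26 (adjusted p = 0.00111). Among 11 relatives and partners of Sytl2, Sytl5 was called higher (1.47, adjusted p = 0.00665, from 27.2 to 76.8 normalised counts) and Exph5, a RAB27 effector gene also called Slac2-b, lower (-0.74, adjusted p = 0.00363). Of 15 raft genes 3 were called higher, including the caveolin genes Cav1 (1.33, adjusted p = 0.00211) and Cav2 (adjusted p = 0.000941), and 2 lower. Of 16 polarity genes none was called higher and 3 lower, with Ush1c at -0.52 (adjusted p = 0.00468). Of 16 MARVEL family genes 2 were called lower, Pllp (-0.76, adjusted p = 0.0212) and Plp2 (-0.35, adjusted p = 0.00996). The calls of Sytl5, Pllp and Plp2 were lost without WT DMSO replicate 2 and without either of the AHR KO DMSO replicates, and that of Pllp also without WT DMSO replicate 3, with adjusted p by limma of up to 0.059 for Sytl5 (without AHR KO DMSO replicate 1), 0.151 for Pllp (without AHR KO DMSO replicate 3) and 0.0763 for Plp2 (without WT DMSO replicate 2). Of the remaining lists, 17 SNARE and exocyst genes had 1 called higher and 1 lower, 7 MAL2 partners 2 and 1, and 13 basolateral sorting genes none, with 2 of the 13 at an unadjusted p under 0.05 by limma.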

How the data were processed

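RNA-seq libraries of 9 colon organoid cultures were analysed from the table of normalised counts deposited by the authors, a signal in scaled counts, with 48795 mouse Ensembl IDs. The submitters' processing notes name STAR 2.5.2a, RSEM 1.2.31, DESeq2 1.16.1 and GRCm38 without a role, and the study's methods describe counts over gene models of mm10 and DESeq2. The deposited table is labelled as RSEM normalised data, and which program normalised it is not given in the sources used here. Of the low values, 67.4% to 72.3% per library lay within 0.1 of whole multiples of a common step, so they were not treated as whole reads and no count model was used, and the step served only to estimate depth. IDs were matched to GENCODE M21 symbols for 99.09%. Genes with a mean of 10 or more (12741) were fitted by limma 3.58.1 in R 4.3.3 on log2(value + 1) with the 4 groups as coefficients and a trended variance, two-sided, with Benjamini-Hochberg adjustment over all of them and calls at 0.05. Fold changes on this scale understate those of low genes. The code was tested on simulated data. Python 3.11.15 was used for the other steps. Promoters came from a RefSeq table of GRCm38.p6, which matched 2 of the 4 genes, Mal and Mall. Of 144 list genes 142 matched and 131 were tested.

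Mal, Mall, Mal2 and Sytl2, the gene lists, the marker lists and the tests were chosen with earlier results of these data known. Named list genes were those called, up to 3 per list and direction by size, of which the report gives mainly those called under every alternative, and every list gene called in the interaction. P-values measure the spread between these libraries. Alternatives were another pseudocount (0.1 and 10), no filter and a minimum mean of 100, scaling by TMM or by quantiles, a fit of only the groups compared, robust variances, a replicate block, the line as a random effect, removal of the GC and length trend, and each library left out. No library was left out of the reported values.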

Additional observations from a re-analysis of the deposited data

Results flagged for a closer look

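Of the 131 list genes tested, Exoc3 was the one called in the interaction, the difference of the FICZ change between WT and AHR KO organoids, in the reported analysis, which is why it is listed here. The difference was 0.94 on the log2 scale (limma, adjusted p = 0.000257), and Exoc3 was higher in 3 of 3 WT FICZ libraries than in both WT DMSO libraries. Over the 21 analyses that fitted this term the difference was 0.91 to 0.97, with adjusted p from 0.000193 to 0.00484. Its neighbour Ahrr ends 2.38 kb before Exoc3 begins on the same strand, and Ahrr had 16.9 and 17.3 normalised counts in AHR KO FICZ and was listed at 0 in both AHR KO DMSO libraries. Whether reads that run on from Ahrr enter the Exoc3 value was not tested.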

How the results depend on the processing

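The calls of Mall and Sytl2 between genotypes under DMSO were made in all 21 alternatives. The difference of Mal in that comparison, which was not called in any of them, ranged from -0.27 to 0.38 with 1 library left out and changed sign without WT DMSO replicate 3 (-0.27) and without AHR KO DMSO replicate 3 (-0.03). With FICZ in WT, Mal2 moved to -0.049 under quantile normalization, to 0.043 once the GC and length trend was removed and to 0.053 with the replicate block and that removal together. With 1 library left out, the FICZ change of Mal in WT ranged from 1.63 to 2.28, and the interaction ranged from 1.56 to 2.21 for Mal, 1.23 to 1.61 for Mall, 1.09 to 1.54 for Sytl2 and 0.0056 to 0.21 for Mal2. Counts of list genes moved more: with FICZ in WT 45 became 27 after GC and length removal, 20 with the replicate block as well, and 17 to 47 with 1 library left out. In AHR KO organoids 24 became 6 and 5 in the same order. There were 22 to 29 with 1 WT FICZ library left out, and fewer still without any 1 of the AHR KO libraries. Between genotypes 33 became 20 without a filter and 8 to 39 with 1 library left out. The interaction had 1 call, 2 with the replicate block (Atp12a, 0.93, adjusted p = 0.0476) and 1 to 2 with 1 library left out (Slc9a3, 2.81, adjusted p = 0.0282, without AHR KO FICZ replicate 1). Of the named list genes, 9 of 35 with FICZ in WT and 8 of 26 between genotypes were called in every alternative. Over all genes, calls with FICZ in WT were 3928, and 2254 after GC and length removal and 1605 with the block as well, while those in AHR KO were 2509, 626 and 493. With 1 library left out they fell to 1993 in WT, 419 in AHR KO, 389 between genotypes (1153 in the full data) and 23 in the interaction (57). The causes were not tested. Libraries of the same line hardly deviated together (correlations of 0.03 to 0.05), nor did those that share a number across genotypes (-0.08 to 0.03), so the replicate block served as an alternative, and the ratios within lines are a description. At the lowest level, Sytl2 in AHR KO, about 80.1 reads limit the precision.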
